A study of Rattus norvegicus with 18 samples.

Results

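The span from day 1 to day 4 of differentiation under PD169316, an inhibitor of the p38 mitogen-activated protein kinases, was examined in rat oligodendrocytes (OLGs). The arrays were chosen by their titles alone: 3 arrays labelled as day 4 and 3 labelled as day 1 differentiated OLGs, both with PD169316, of 18 arrays in all. The cells came from neonatal Sprague-Dawley rats, in which oligodendrocyte progenitors (OLPs) were isolated from mixed glial cultures, and each library was hybridised to an Illumina RatRef-12 array. The other arrays were 3 of OLPs at day 0, 3 of day 1 control cells without inhibitor, and 6 labelled day 2, with and without inhibitor. By the study's methods, controls were given a matching amount of DMSO, and OLPs differentiated once the mitogens PDGF-AA and bFGF were removed. All 6 arrays compared carried the inhibitor label, the labels name no genotype or transgene, and no day 4 control group was among the labels. Time in culture, the stage of differentiation and the length of exposure to PD169316 therefore cannot be told apart in this comparison. The treatment description in the labels names exposures of 1 or 2 days. For separate PCR measurements the study's figure legends also give exposure for 4 days, and its methods describe treatment of the same length for stained cultures. The schedule behind the day 4 arrays is not stated apart from their titles.

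OLPs are dividing, migratory cells that leave the cell cycle, arrest and then switch on the genes of myelin, the lipid-rich membrane that insulates axons. Differentiation is held back by inhibitory transcription factors such as the Id proteins, and it demands a large output of membrane lipid and of proteins made in the endoplasmic reticulum. The p38 kinases, activated by the upstream kinases MKK3 and MKK6, are known to take part in OLG differentiation in culture.

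Levels are given as log2 intensity after background correction and quantile normalization, and a gene was called higher or lower at an adjusted p under 0.05 in limma's moderated test. Detected probes numbered 9789 to 10773 per array, and the median deposited intensity lay between 121 and 149. The day 4 arrays correlated with each other at 0.9916 to 0.9972 and with the day 1 PD169316 arrays at 0.9559 to 0.9716. All array correlations given here are over the 10046 probes tested for these groups. Under their labels the day 2 arrays did not form uniform groups. Replicates 1 and 2 of the day 2 control and replicate 1 of day 2 PD169316 correlated with the day 4 arrays at 0.9845 to 0.9907, whereas the other day 2 arrays did so at 0.9658 to 0.9794. No day 2 array was therefore used in any test. The labels do not say whether replicates were separate cultures, so each p-value is set against a spread among samples that could be purely technical. In these bulk samples, fewer cells of a type and less RNA per cell cannot be told apart. Of the defining markers of the lineage, Mbp (myelin basic protein), Mog, Mobp, Sox10 and Pdgfra were detected on all 6 arrays, and markers of other cell types are given beside the genes they move with.

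Over the whole array, 5277 of 10046 probes tested were called (52.5%), 2386 higher (23.8%) and 2891 lower (28.8%) at day 4. The groups did not overlap for 62.6% of probes. Changes of at least 2-fold were mainly upward, with 546 probes higher (5.43%) and 295 lower (2.94%). Among named genes, 1722 of 7225 were called higher (23.8%) and 2169 lower (30.0%), and these shares are the background for every list of genes counted here. The balance of directions depended on scaling. Without any scaling between arrays the median over all probes shifted by 0.18 on the log2 scale, from -0.04 to 0.14, and 80.6% of 2541 calls were higher in place of 45.2%. Many small decreases were therefore lost without scaling, and beside each list the number still called lower without scaling is given where it was smaller by over 1.5 times. Where a probe was detected on only some arrays of a group, their number is given beside its value. A probe not detected on every array of a group was tested only because every array of the other group detected it. Its part in any list count therefore depends on that detection filter.

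The genes of compact myelin were higher at day 4. Of 14 measured members, 12 were called higher, none was called lower, and the median difference was 0.97 on the log2 scale, against -0.04 over all probes. Mal, a proteolipid of myelin membranes, had log2 levels of 7.99, 7.61 and 7.92 on the day 1 arrays and 11.67, 12.67 and 11.69 on the day 4 arrays. All day 4 arrays lay above all day 1 arrays, and the difference of 4.17 ± 0.23 (SE, n = 3 per group, adjusted p = 1.26e-07) was the largest rise of any named gene. Mog, a glycoprotein of the outermost myelin layer, measured 9.86, 9.69 and 9.55 at day 1 and 12.87, 13.40 and 12.79 at day 4. The groups were far apart and the rise was 3.32 ± 0.16 (SE, adjusted p = 5.82e-08). Mobp, a basic protein that packs the cytoplasmic faces of myelin, went from 11.12, 11.00 and 11.19 to 14.20, 14.67 and 14.04. Its increase of 3.20 ± 0.13 (SE, adjusted p = 2.4e-08) left no overlap between the groups. Mbp, which compacts the myelin sheath, measured 11.77, 11.78 and 12.10 and then 13.99, 14.39 and 13.79. Every day 4 array was higher, by 2.18 ± 0.16 on average (SE, adjusted p = 8.39e-07). Opalin, a transmembrane sialoglycoprotein of myelin, and Mag, an adhesion protein of the layer next to the axon, rose by 2.54 and 2.01. Cldn11, the tight junction protein of myelin, rose by 0.91, and Cnp, an enzyme abundant in non-compact myelin, by 0.53.

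**Figure D1:**
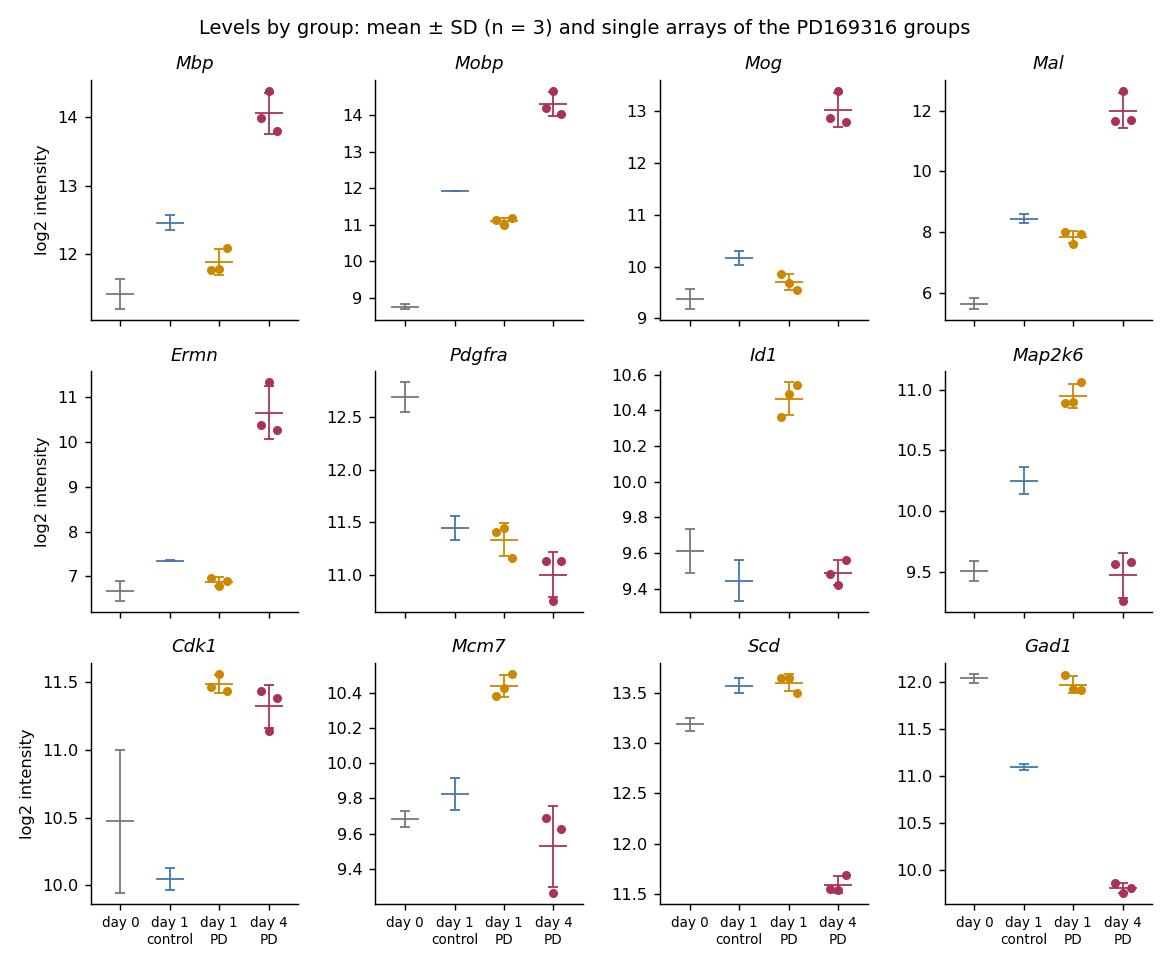
Log2 intensity (vertical axes) of 12 genes in day 0, day 1 control, day 1 PD169316 and day 4 PD169316 cells, with the mean ± SD over 3 arrays and single arrays as points for both inhibitor groups. The day 4 arrays lie above the day 1 arrays for Mbp, Mobp, Mog, Mal and Ermn and below them for Id1, Map2k6, Mcm7, Scd and Gad1, while those of Cdk1 overlap.

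Set beside the day 1 control cells, which never had the inhibitor, the same day 4 arrays showed which of these genes had passed the earlier control level. Against day 1 control, 5218 of 10007 probes were called (52.1%), 23.8% of the tested probes higher and 28.3% lower. Mal stood 3.58, Mog 2.85, Mobp 2.38 and Mbp 1.60 above day 1 control, all of them past the threshold. Cnp differed from day 1 control by 0.11 (adjusted p = 0.145), which did not pass.

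Genes of late OLG maturation were called higher in 25 of 29 cases, with a median difference of 1.50, and 2 were called lower. The median level of the list was 9.50, 9.40 and 9.43 on the 3 day 1 PD169316 arrays and 10.86, 11.33 and 10.87 on the day 4 arrays, beside 9.29, 9.29 and 9.32 in day 1 control. Day 4 replicate 2 was the highest of its group for this list. Ermn, which encodes the cytoskeletal myelin protein ermin, measured 6.97, 6.78 and 6.91 at day 1 and 10.37, 11.33 and 10.27 at day 4. The groups did not overlap, and the difference was 3.77 ± 0.22 (SE, adjusted p = 2.07e-07). Ppp1r14a, an inhibitor of myosin phosphatase, measured 7.78, 8.04 and 7.94 and then 11.54, 12.24 and 11.53. It rose by 3.85, second only to Mal among named genes. Hapln2, a link protein found at nodes of Ranvier, rose from 7.63 ± 0.11 to 11.18 ± 0.48 (mean ± SD). Aspa, the enzyme that releases acetate from N-acetylaspartate, rose by 2.27 ± 0.10. The receptor genes S1pr5, for sphingosine 1-phosphate, and Gpr37, an orphan receptor of OLGs, rose by 2.61 and 2.59. Also higher were Adamts4, a metalloproteinase that cleaves proteoglycans, by 1.87, and Cryab, a small heat shock protein, by 1.63. Il33, a nuclear cytokine of OLGs, rose by 0.82 but stood only 0.02 from its day 1 control level (adjusted p = 0.851). The members called lower were Efnb3, an ephrin ligand, and, with a difference of -0.41, Enpp2, an ectoenzyme that makes lysophosphatidic acid, which was not called without scaling (-0.17, adjusted p = 0.435). Efnb3 measured 9.85, 9.79 and 9.67 at day 1 and 7.61, 7.56 and 7.78 at day 4. The difference of -2.12 ± 0.09 (SE, adjusted p = 2.51e-08) was among the largest decreases on the array.

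Several of the steepest increases fell in genes outside the myelin lists. Atp2a3, a calcium pump of the endoplasmic reticulum, measured 6.28, 6.44 and 6.37 and then 10.32, 9.50 and 10.17. All day 4 arrays were higher, by 3.63 ± 0.21 on average (SE, adjusted p = 2.05e-07). Slc24a2, a potassium-dependent sodium-calcium exchanger, was not detected in the day 1 group and was at least 5.53-fold higher at day 4. Ppef1, a protein phosphatase with calcium-binding EF hands, and Klhl4, a kelch-like protein, were likewise undetected at day 1 and at least 5.64-fold and 4.15-fold higher. These bounds set the mean day 4 level against the higher of the dim probe's own signal and the lowest signal detected on each day 1 array. Tmem178a, a membrane protein, rose by 2.92, Pip, a secreted glycoprotein, by 2.99, and Epcam, an epithelial adhesion molecule, by 2.90. Epcam was detected on 2 of the 3 day 1 arrays, and its difference ran from 1.67 to 3.04 over the alternative settings. Nfe2l3, a transcription factor of the NRF family, and Apln, the peptide ligand apelin, rose by 2.84 and 2.77.

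**Figure D2:**
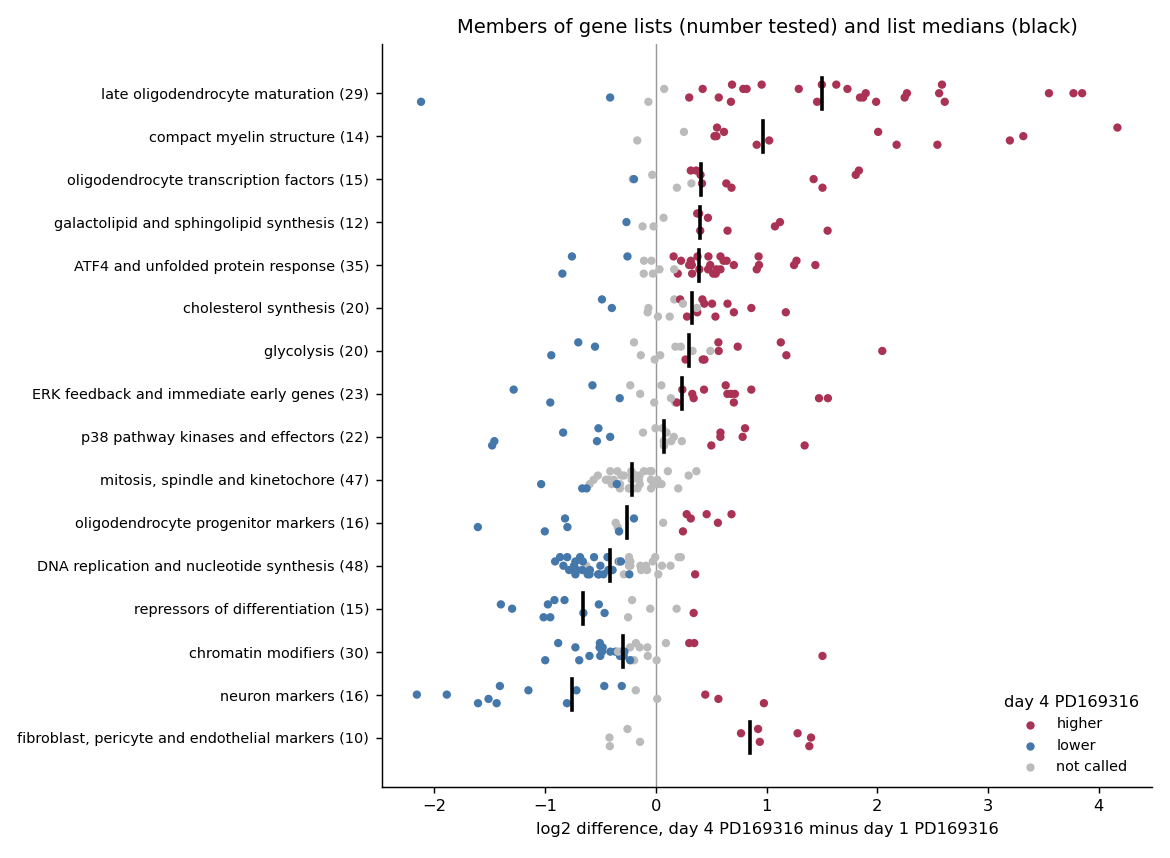
Log2 difference of day 4 against day 1 PD169316 (horizontal axis) for each tested member of 16 gene lists (rows), coloured by its call, with the list median as a black mark. Late maturation (median 1.50) and compact myelin (0.97) lie to the right, and the repressors of differentiation (-0.65) and neuron markers (-0.76) to the left.

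Lipid genes did not move as a block. Cholesterol synthesis genes were called higher in 11 of 20 cases, and 2, the reductases Dhcr7 and Tm7sf2 of the last steps, were lower, with differences of -0.40 and -0.49. Neither was called without scaling (-0.12, adjusted p = 0.633, and -0.20, adjusted p = 0.389). Against day 1 control, 3 of the 20 genes were higher and 9 lower, with a median of -0.14. Hsd17b7, which acts in the late pathway, rose by 1.17, Idi1, an isomerase of the isoprenoid steps, by 0.86, Cyp51, the lanosterol demethylase, by 0.71, and Sqle, the squalene epoxidase, by 0.54. Against day 1 control the differences of these 4 genes were 0.30, 0.15, 0.03 and 0.04, and none of these passed the threshold. Galactolipid and sphingolipid genes were called higher in 8 of 12 cases, and Psap, the saposin precursor, was lower (-0.27). The call of Psap was lost in 5 of 24 alternatives, without day 1 replicate 2 (-0.23, adjusted p = 0.0788), without day 4 replicate 2 (-0.24, adjusted p = 0.061) and without scaling (-0.03, adjusted p = 0.936) among them. Ugt8, the ceramide galactosyltransferase that makes galactocerebroside, rose by 1.08, Cers2, the ceramide synthase for very long acyl chains, by 1.12, and Galc, which degrades galactocerebroside, by 1.55. Fatty acid synthesis and elongation genes were split, with 7 of 19 higher and 7 lower, or 3 lower without scaling. Scd, a stearoyl-CoA desaturase, measured 13.65, 13.64 and 13.50 at day 1 and 11.56, 11.54 and 11.69 at day 4. All day 4 arrays were lower, by 4.01-fold on average (SE on the log2 scale 0.07, adjusted p = 1.5e-08), and day 4 also differed by -1.98 on the log2 scale from day 1 control. Fads2, another fatty acid desaturase, fell by 0.78 on the log2 scale. Thrsp, a regulator of lipogenesis known from liver, was undetected at day 1 and at least 4.02-fold higher at day 4. Among carriers, Vldlr, a lipoprotein receptor, and Plin2, a coat protein of lipid droplets, rose by 1.44 and 1.04, whereas Scarb1, a receptor for high-density lipoprotein, had a difference of -0.94.

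From day 1 to day 4 under the inhibitor, the transcription factors that act for OLG differentiation and those that hold it back were mostly called in opposite directions. Of 15 OLG transcription factors tested, 10 were higher and 1 lower. The list median was 10.73, 10.77 and 10.76 on the day 1 PD169316 arrays and 11.20, 11.03 and 11.13 on the day 4 arrays. It was 11.05, 10.93 and 10.95 in day 1 control and 10.81, 11.20 and 10.97 at day 0. Against day 1 control, 5 of the 15 were higher and 3 lower. St18, a zinc finger protein of the myelin transcription factor family, rose by 1.83, with a range of 0.73 to 2.04 over the alternatives. It was detected on 1 of the 3 day 1 arrays, so it was tested only through the day 4 group, where it was higher. Nkx6-2, a homeodomain factor, rose by 1.81, and Hdac11, a histone deacetylase, by 1.51. The thyroid hormone receptors Thrb and Thra rose by 1.43 and 0.64, and Olig2, the basic helix-loop-helix factor of the lineage, by 0.68. Sox10, a lineage factor that activates myelin genes, was the only member called lower, with a difference of -0.20 (adjusted p = 0.0202). That call was lost in 6 of 24 alternative settings, without day 1 replicate 3 (-0.17, adjusted p = 0.0682) and without day 4 replicate 2 (-0.15, adjusted p = 0.0683) among them, and without scaling the difference was 0.11 with the opposite sign (adjusted p = 0.654).

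Of 15 repressors of differentiation, 10 were called lower and 1, the AP-1 subunit Jun, higher (0.34), with a median difference of -0.65. Id1, an inhibitor of basic helix-loop-helix factors, measured 10.36, 10.49 and 10.54 at day 1 and 9.49, 9.42 and 9.56 at day 4. The day 4 arrays were all lower, with a mean difference of -0.98 ± 0.09 (SE, adjusted p = 3.66e-06). Day 1 control had a mean of 9.45 ± 0.12 (SD), and day 4 differed from it by 0.04 (adjusted p = 0.695). Id2, of the same family, differed by -0.92, and Id3 by -0.25 (adjusted p = 0.0649), which did not pass. The SoxC and SoxD factors Sox4, Sox11 and Sox6, which keep precursors undifferentiated, differed by -1.30, -1.01 and -1.40. The immediate early gene Egr1 differed by -0.95 ± 0.23 (SE). Tcf4, a helix-loop-helix partner protein that was counted in this list, differed by -0.83. The study names a Tcf4 among the repressors and calls it a Wnt/beta-catenin target. Tcf7l2, a Wnt pathway gene also known as TCF4, was counted in other lists and was not called (0.19, adjusted p = 0.481). Whether Tcf4 acts as a repressor in these cells was not tested. With no scaling, 8 of the 15 were still called lower.

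Progenitor markers were divided, with 6 of 16 called higher and 6 lower, or 4 lower without scaling, and the median of the list turned from -0.26 to 0.04 without scaling. Cspg4, the NG2 proteoglycan of OLPs, measured 9.76, 9.74 and 9.94 at day 1 and 9.13, 8.73 and 9.12 at day 4. All day 4 arrays were lower, with a mean difference of -0.82 ± 0.13 (SE, adjusted p = 0.000307), and day 4 differed by -1.80 from day 1 control. Pdgfra, the receptor for the OLP mitogen PDGF, measured 11.40, 11.44 and 11.16 and then 11.13, 10.75 and 11.12. Its difference of -0.33 ± 0.12 (SE, adjusted p = 0.0381) lost the call in 9 of 24 alternatives, which included leaving out day 1 replicate 1 (-0.30, adjusted p = 0.109), day 1 replicate 2 (-0.28, adjusted p = 0.124) or day 4 replicate 2 (-0.21, adjusted p = 0.147). The matrix protein gene Matn4 had a difference of -1.61, and the signalling adaptor gene Traf4 went from 10.79 ± 0.12 to 9.79 ± 0.23 (mean ± SD) and was called lower. Nes, an intermediate filament of progenitors, was higher by 0.56 and stood 1.71 above day 1 control. Its call was lost without day 1 replicate 1 (0.54, adjusted p = 0.0578), day 1 replicate 3 (0.55, adjusted p = 0.0525) or day 4 replicate 2 (0.37, adjusted p = 0.0829).

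Genes of newly formed OLGs were also mixed, with 3 of 13 called higher and 5 lower. Without scaling 2 were higher and 1, Sema5a, was lower, and the median of the list went from 0.06 to 0.28. Rras2, a small GTPase, rose by 1.92 and Enpp6, a choline phosphodiesterase, by 1.12, and Frmd4a, a FERM domain protein, by 0.30, whereas Neu4, a sialidase detected on 2 of the 3 day 4 arrays, had a difference of -0.72. Sema5a, a semaphorin, was called lower, with levels of 8.91 ± 0.08 at day 1 and 7.91 ± 0.36 at day 4 (mean ± SD). The others called lower were the matrix genes Vcan (versican) and Tnr (tenascin-R) and Mpzl1, a membrane protein, with differences of -0.29, -0.67 and -0.53, of which that of Vcan was 0.01 without scaling. The call of Vcan was also lost without day 1 replicate 1 (-0.24, adjusted p = 0.0964), day 1 replicate 2 (-0.26, adjusted p = 0.0825) or day 4 replicate 2 (-0.20, adjusted p = 0.101). Frmd4a, Neu4, Tnr and Mpzl1 were not called without scaling, with differences of 0.16, -0.15, -0.40 and -0.23. Fyn, a kinase of early myelination, and Bcas1, a marker of newly formed OLGs, had differences of 0.07 and -0.14 and were not called, although both were below day 1 control, with differences of -0.86 and -0.30.

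Genes of DNA replication were lower at day 4, while most genes of mitosis did not pass the test. Of 48 replication and nucleotide synthesis genes, 28 were called lower and 1, the origin recognition gene Orc2, higher (0.36), with a median difference of -0.42. This count rested on scaling and was 4 without it, with a median of -0.10. Of 47 mitosis, spindle and kinetochore genes, 4 were called lower and none higher, with a median of -0.22, and 1 was lower without scaling. The mitosis count was 18 without day 0 replicate 1 and 17, beside 2 higher, with only the 6 arrays compared in the fit, and the median was -0.01 without scaling. Known control elements of these genes differ: E2F elements, bound by E2F factors, lie in promoters of replication genes, and the CHR element is found in promoters of genes expressed in G2 and mitosis. The promoter sequences below, from RefSeq on build GRCr8, show the elements in the 3 replication genes with the largest decrease and the 3 mitosis genes that stood furthest above day 1 control among those with a match, with the matched letters in capitals and the gene's own strand read from 5′ to 3′.
Mcm7, chr12:22163212-22163241, minus strand: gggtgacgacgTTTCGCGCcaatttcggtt
Mcm3, chr9:30733734-30733763, minus strand: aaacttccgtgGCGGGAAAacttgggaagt
Mcm6, chr13:42404469-42404498, minus strand: gtctgcttttgGCGCGAAAttagcgtgtgg
Ccnb2, chr8:79981684-79981713, minus strand: agcggcgcggtaTTTGAAtcgcggacccag
Plk4, chr2:125730486-125730515, plus strand: cggcgggaatttTTCAAAatgggagcatcg
Hmmr, chr10:25665244-25665273, minus strand: cgttggggtaaaTTTGAAttcaggcgagtt
The E2F search used TTTGGCGC, TTTCCCGC and TTTCGCGC on both strands, in 250 bases before to 50 after the start of each gene, and found a match in 21 of 42 replication genes with a promoter (50%), beside 1.82% of all 27457 promoters and 3.76% of 6085 tested genes. TTTGAA, the letters of the CHR element, was found in 28 of 38 mitosis genes (73.7%), beside 18.1% of all promoters and 11% of tested genes. Within the replication list, 12 of 21 genes with an E2F match were called lower and 13 of 21 without one. A match describes the letters only and is neither a bound site nor a cause.

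The minichromosome maintenance genes, which encode the replicative helicase, carried the largest of these decreases. Mcm7 measured 10.38, 10.43 and 10.51 at day 1 and 9.69, 9.26 and 9.63 at day 4. The groups did not overlap, and the difference was -0.91 ± 0.10 (SE, adjusted p = 2.13e-05). Mcm3 and Mcm6 differed by -0.87 and -0.83, and Orc1, of the origin recognition complex, by -0.80, which was not called without scaling (-0.22, adjusted p = 0.274). Dnmt1, the maintenance DNA methyltransferase, measured 10.81, 10.81 and 10.86 and then 10.14, 9.96 and 10.21. All day 4 arrays were lower, with a mean difference of -0.73. Rrm2, a subunit of ribonucleotide reductase, had a difference of 0.02 (adjusted p = 0.929) but stood 1.70 above day 1 control (adjusted p = 1.68e-05). The replication list as a whole was also above day 1 control at day 4, with 26 of 45 genes called higher, 2 lower and a median of 0.31. Its median level was 8.12, 7.98 and 8.12 on the day 4 arrays and 7.63, 7.62 and 7.75 in day 1 control. The arrays labelled day 2 control, also without inhibitor, had medians of 8.34, 8.39 and 8.13. Mcm3 and Mcm6 stood 0.58 and 0.33 above day 1 control, whereas Mcm7 differed from it by -0.30.

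The median level of the mitosis list lay above that of day 1 control on every array of both inhibitor groups. It did so too on the arrays labelled day 2 control, without inhibitor (8.82, 8.77 and 8.63), although these did not form a uniform group. The list median was 8.88, 8.93 and 8.86 on the day 1 PD169316 arrays and 8.66, 8.50 and 8.65 on the day 4 arrays, against 7.71, 7.65 and 7.97 in day 1 control and 7.47, 8.12 and 8.06 at day 0. Day 4 against day 1 control gave 42 of these genes called higher and 1, Ncapd2, lower, with a median of 1.09. Cdk1, the kinase that drives entry into mitosis, measured 11.47, 11.56 and 11.43 at day 1 and 11.43, 11.14 and 11.38 at day 4 under the inhibitor. The groups overlapped, with a difference of -0.17 ± 0.20 (SE, adjusted p = 0.507), and day 4 was 1.27 above day 1 control (adjusted p = 0.00027). Ccnb2, a mitotic cyclin, measured 11.09, 11.22 and 11.04 and then 11.39, 11.16 and 11.41. Its difference of 0.20 did not pass, and day 4 stood 1.35 above day 1 control. Plk4, the kinase of centriole duplication, and Hmmr, a spindle protein, were 1.33 and 1.33 above day 1 control, with differences between the inhibitor groups of 0.30 and 0.11 that were not called. The 4 members called lower from day 1 to day 4 were the condensin genes Ncapd2 and Smc2, with differences of -1.04 and -0.35, Incenp, of the chromosomal passenger complex (-0.66), and Cks1b, a subunit of cyclin-dependent kinases (-0.63). Without scaling Smc2, Incenp and Cks1b were not called, with differences of -0.14, -0.22 and -0.41. The call of Smc2 was also lost without day 1 replicate 1 (-0.29), day 1 replicate 2 (-0.37) or day 4 replicate 2 (-0.24).

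**Figure D3:**
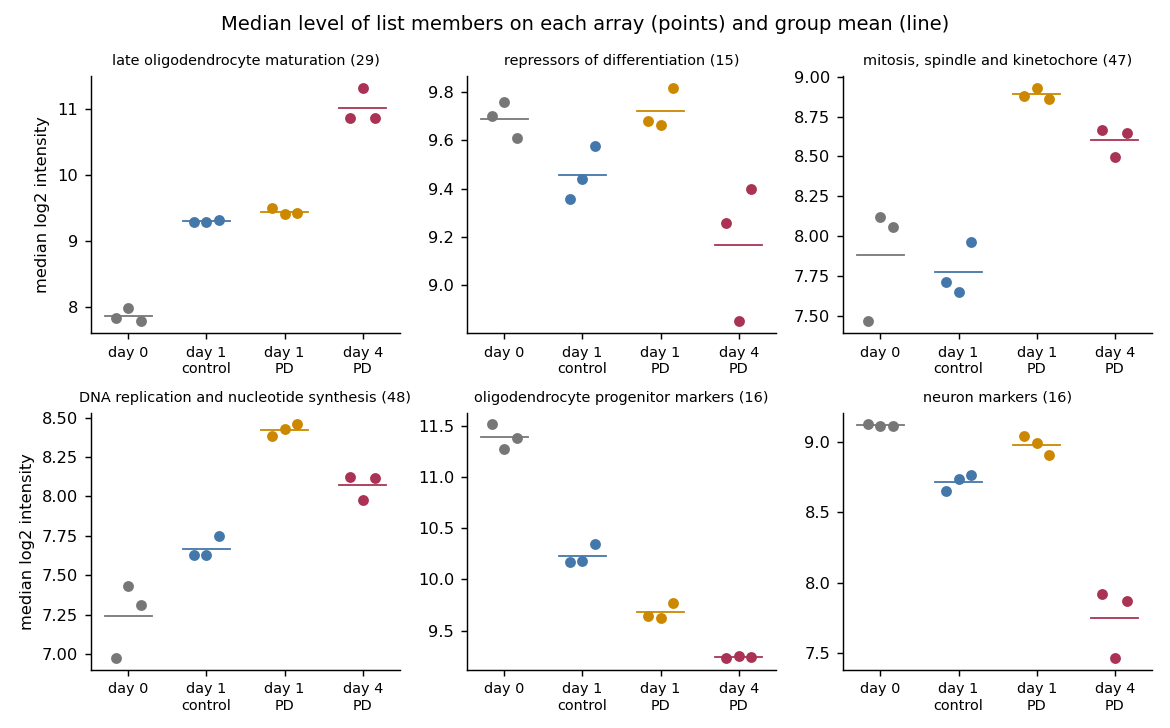
Median log2 intensity (vertical axes) over the tested members of 6 gene lists on each array of the day 0 and day 1 control groups and of both inhibitor groups. The mitosis list stays above day 1 control in both inhibitor groups, and the late maturation list lies highest at day 4. The day 2 arrays are not shown.

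Regulators of the G1 phase and of arrest gave a mixed picture. Of 20 cyclins, kinases and G1/S regulators, 4 were called higher and 9 lower, and 2 were lower without scaling. Myc, the growth-promoting transcription factor, measured 11.82, 11.76 and 11.91 at day 1 and 10.52, 10.56 and 10.56 at day 4. The day 4 arrays were all lower, with a mean difference of -1.28 ± 0.11 (SE, adjusted p = 2.19e-06). Cdk4, the kinase partner of D cyclins, had a difference of -0.93, and its partner gene Ccnd1 of -0.10 (adjusted p = 0.245). In the other direction, Tfdp2, a dimerization partner of E2F factors, rose by 1.71, Ccne2, an E cyclin, by 0.82, and both the retinoblastoma gene Rb1 and the p53 target Ccng1 by 0.57. Among inhibitors of the cycle, Cdkn1a, which encodes p21, was undetected at day 1 and at least 2.35-fold higher at day 4. Cdkn1b, which encodes p27, had a difference of 0.10 (adjusted p = 0.414). Cdkn1c, which encodes p57, had log2 levels of 6.83, 7.20 and 7.61 at day 1 and 7.26, 6.72 and 7.15 at day 4, beside 9.18 ± 0.07 in day 1 control (mean ± SD). The inhibitor groups overlapped, with a difference of -0.17 (adjusted p = 0.424), and day 4 differed by -2.14 from day 1 control (adjusted p = 2.78e-06). The p53 target Phlda3 rose by 1.81 and Gadd45a, a stress-induced growth arrest gene, by 0.81, whereas the antiproliferative gene Btg1 had a difference of -1.09.

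In the p38 pathway itself, 6 of 22 genes were called higher and 6 lower, or 3 lower without scaling. Map2k6, which encodes MKK6, measured 10.89, 10.90 and 11.06 at day 1 and 9.57, 9.26 and 9.58 at day 4. All day 4 arrays were lower, with a mean difference of -1.48 ± 0.10 (SE, adjusted p = 4.97e-07), and day 4 differed by -0.78 from day 1 control. Map3k1, a kinase further upstream, and Mknk2, a kinase acting on the translation factor eIF4E, had differences of -1.46 and -0.84. Mapk14, which encodes p38 alpha, a target of PD169316, measured 9.49, 9.45 and 9.68 and then 8.99, 8.95 and 9.12. The difference was -0.52 ± 0.10 (SE, adjusted p = 0.00107), and the call was lost without scaling (-0.27, adjusted p = 0.21). Atf1, a transcription factor of the CREB family, rose by 1.34. Of 23 ERK feedback and immediate early genes, 13 were called higher and 4 lower, or 2 lower without scaling. Dusp1, a phosphatase of MAP kinases, measured 9.68, 9.57 and 9.53 at day 1 and 10.84, 11.55 and 10.81 at day 4. The groups did not overlap, and the gene rose by 1.47 ± 0.16 (SE, adjusted p = 1.57e-05). Phlda1, a growth factor-induced gene, rose by 1.55.

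Genes of the unfolded protein response and its effector ATF4, which adjust protein folding and amino acid supply, were called higher in 26 of 35 cases and lower in 3, or 1 without scaling, with a median of 0.39. The ERSE, a promoter element known to be read by ATF6 with NF-Y, was searched for as CCAAT and CCACG with 9 bases of any kind between them, on both strands of the same promoter windows. It lay in 7 of 29 of these genes (24.1%), in 0.0765% of all promoters and in 0.214% of tested genes. The members with the largest change among those carrying it are shown, with the element in capitals.
Dnajc3, chr15:102432529-102432558, plus strand: caaagCCAATCAGCGCCAACCACGacccag
Xbp1, chr14:84604553-84604582, plus strand: acaggCCAATCGCAGACGGCCACGacccta
Canx, chr10:35158063-35158092, minus strand: cttgtCCAATCATCACGCTCCACGaagaat
Of the 7 genes with the element, 5 were called higher, beside 16 of 22 without it. Dnajc3, a co-chaperone of the endoplasmic reticulum, measured 10.66, 10.64 and 10.65 at day 1 and 11.59, 11.62 and 11.53 at day 4. It was higher on every day 4 array, by 0.93 ± 0.08 on average (SE, adjusted p = 4.3e-06). Xbp1, a transcription factor of the response, rose by 0.48, and the chaperones Canx (calnexin), Calr (calreticulin) and Hspa5 (BiP) by 0.39, 0.33 and 0.30. Larger increases lay among genes linked to ATF4: Chac1, which degrades glutathione, rose 2.38-fold and Slc7a1, a carrier of cationic amino acids, 2.41-fold. Slc7a3, another cationic amino acid carrier, measured 10.38, 10.34 and 9.94 and then 9.34, 9.62 and 9.42. It fell by 0.76 on the log2 scale, yet stood 1.43 above day 1 control, and it was not called lower without scaling. The others called lower were Slc7a5, a carrier of large neutral amino acids (-0.84), and Psph, of serine synthesis (-0.26, or 0.02 without scaling).

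Stress genes beyond the endoplasmic reticulum also moved. A list of 25 genes joined targets of NRF2, the regulator of the antioxidant response, with other genes of oxidative stress. Of these, 10 were called higher and 6 lower, and none was lower without scaling. Gclm and Txnrd1 were among those called lower (-0.28 and -0.32). Gclc, Gsr and Prdx1 were not called (0.07, -0.09 and 0.11). Nqo1, a quinone reductase, rose by 1.20 and stood 1.98 above day 1 control. Hmox1, the heme oxygenase induced by oxidative stress, measured 11.67, 11.61 and 11.91 at day 1 and 12.36, 12.08 and 12.43 at day 4, with a mean of 10.19 ± 0.25 (SD) in day 1 control. Its increase under the inhibitor was 0.56 ± 0.16 (SE, adjusted p = 0.0114), and day 4 stood 2.10 above day 1 control. Nfe2l2, which encodes NRF2, rose by 0.94, and Mt1, a metallothionein, had a difference of -0.80 and was not called without scaling. Of 16 heat shock genes, 8 were called higher and 4 lower, or 1 lower without scaling, with a median of 0.19. Hspa2, an HSP70 family member, rose by 1.68 and Bag3, a co-chaperone of HSP70, by 1.03. The members called lower were Hspe1, Stip1, Hspd1 and Dnaja1, with differences of -0.68, -0.47, -0.25 and -0.19.

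Signalling pathways that are known to restrain OLG maturation had calls in both directions under the main scaling. Of 26 BMP and TGF-beta genes, 6 were called higher and 5 lower, beside shares of 23.8% and 30.0% among named genes, and without scaling 4 were higher and 1 lower. The inhibitory Smad7 rose by 0.89 and Bmp1, a procollagen proteinase, by 1.11, while the pseudoreceptor gene Bambi had a difference of -0.89. Bmp4, a ligand that keeps OLPs from differentiating, measured 11.04, 11.08 and 11.14 at day 1 and 11.28, 10.85 and 11.31 at day 4. Those arrays overlapped (difference 0.06, adjusted p = 0.671), and day 4 differed by -0.73 from day 1 control (adjusted p = 0.00019). Of 14 Wnt pathway genes, 4 were higher and 5 lower, with the ligand gene Wnt4 higher by 1.24 and the ligand gene Wnt5a at a difference of -0.72. None was lower without scaling, where Wnt5a was at -0.19 (adjusted p = 0.367). Wnt4 was detected on 2 of the 3 day 1 arrays, ranged from 0.51 to 1.42 over the alternatives and was not called with all 18 arrays in the fit (adjusted p = 0.0548). Of 12 Notch pathway genes, 5 were higher and 3 lower, or 1 lower without scaling. The proteinase gene Adam10, which cleaves Notch receptors, rose by 0.87 and the ligand genes Dll3 and Jag1 by 0.72 and 0.42, and Dlk1, a non-canonical ligand, had a difference of -1.18 ± 0.36 (SE, adjusted p = 0.0153). Dll3 was detected on 2 of the 3 day 1 arrays. The call of Jag1 was lost without day 1 replicate 3 (0.34, adjusted p = 0.0501), and that of Dlk1 without scaling and without day 4 replicate 2 (-0.82, adjusted p = 0.0621).

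Of 25 genes of vesicle fusion and secretion, 10 were higher and 6 lower, or 3 lower without scaling, with the small GTPase gene Rab3c, the synaptotagmin gene Syt4 and the synaptobrevin gene Vamp1 higher by 1.79, 1.52 and 1.47 and another synaptotagmin gene, Syt1, at -1.15. Rab3c was detected on 2 of the 3 day 1 arrays and ranged from 0.83 to 1.93 over the alternatives. Of 30 lysosomal genes, 7 were higher and 7 lower, or 7 and 1 without scaling, and the protease gene Ctsl (cathepsin L) rose by 0.86. Of 13 interferon response genes, 3 were higher and 4 lower, and none was lower without scaling, where the list median turned from -0.15 to 0.06.

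Carriers of lactate and genes of signalling at the cell surface included further large changes. Slc16a3, a monocarboxylate transporter, measured 6.28, 6.56 and 6.66 at day 1 and 8.46, 8.82 and 8.35 at day 4. The day 4 arrays were all higher, by 2.05 ± 0.17 on average (SE, adjusted p = 2.19e-06). Slc16a1, the monocarboxylate transporter through which OLGs are known to supply axons with lactate, rose by 1.18 and Vegfa, an angiogenic growth factor induced by low oxygen, by 1.13. In the glycolysis list as a whole, 9 of 20 genes were higher and 3, the phosphofructokinases Pfkm and Pfkp and the aldolase Aldoc, lower, of which Aldoc alone was lower without scaling. Tyro3, a receptor tyrosine kinase for Gas6 and protein S, rose by 1.49 and Fgfr2, a receptor for fibroblast growth factors, by 1.10, whereas Igf1r, the receptor for insulin-like growth factor 1, had a difference of -1.36 ± 0.12 (SE). Of 26 axon guidance genes, 8 were higher and 12 lower, or 7 and 5 without scaling, with the netrin receptor gene Unc5b higher by 2.17. The Eph receptor genes Ephb1 and Epha4 rose by 1.71 and 1.69. Ephb1 measured 8.85, 8.96 and 8.85 at day 1 and 10.59, 10.59 and 10.61 at day 4, with 10.47 ± 0.05 in day 1 control (mean ± SD). The day 1 inhibitor arrays were thus the low ones, and day 4 differed from day 1 control by 0.13 (adjusted p = 0.255). Mfng, a modifier of Notch receptors, had the same order, with a rise of 1.56 and a difference from day 1 control of 0.32 (adjusted p = 0.129). Pnoc, the precursor of nociceptin, rose by 1.65 and differed by -0.46 from day 1 control, past the threshold. Lcn2, a secreted iron-siderophore carrier, had a difference of -0.40 (adjusted p = 0.158) and differed by -2.64 from day 1 control. Of the matrix and adhesion genes, Spock1, a testican proteoglycan, rose by 2.56 and its relative Spock2 had a difference of -1.19.

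Several of the largest decreases were in genes best known from neurons and interneuron precursors. Of 16 neuron markers, 11 were called lower, with a median of -0.76, and 7 were lower without scaling. The 3 called higher were Elavl3, an RNA-binding protein (0.98), Eno2, the neuronal enolase (0.57), and Nefm, a neurofilament (0.45). Gad1, the GABA-synthesising decarboxylase, measured 12.08, 11.92 and 11.92 at day 1 and 9.87, 9.76 and 9.82 at day 4. The groups lay far apart, with a difference of -2.16 ± 0.06 (SE, adjusted p = 4.92e-09), and day 0 had a mean of 12.04 ± 0.04 (SD). Dlx1 and Dlx5, homeobox genes of interneuron development, differed by -2.12 and -2.05. Dlx5 was detected on 1 of the 3 day 4 arrays and ranged from -2.21 to -0.87 over the alternatives. Pcp4, a calmodulin-binding peptide, measured 11.32, 11.38 and 11.22 and then 8.75, 8.71 and 8.89. Its difference of -2.52 ± 0.15 (SE, adjusted p = 2.78e-07) was the largest decrease of any named gene. Dync1i1, a dynein intermediate chain abundant in neurons, Synpr and Syp, both proteins of synaptic vesicles, and Hap1, the huntingtin-associated protein, differed by -2.32, -2.20, -1.89 and -1.92. The microtubule regulators Stmn2 and Stmn3 differed by -1.61 and -1.51, and the sodium channel subunit Scn3b by -1.84. Among glutamate receptor subunits, Grik5 differed by -1.65 and Grin1 by -1.32, the latter detected on 1 of the 3 day 4 arrays and at -1.37 to -0.45 over the alternatives. Gabra5, a GABA receptor subunit, was detected at day 1 but not at day 4 and was at least 3.28-fold lower. Hrk, a pro-death protein of the BCL2 family, was also lost from detection and at least 3.55-fold lower. Other large decreases were in Tspan33, a tetraspanin (-2.28), Tmem130, a membrane protein (-2.09), Epb41l3, a membrane skeleton protein (-1.95), Sntg2, a syntrophin (-2.01), and Art3, of the ADP-ribosyltransferase family (-1.92). The summed linear level of the 16 tested neuron markers contains Gad1, Syp, Stmn2 and Stmn3, so it is not separate from their decreases. It was 24967 to 26547 on the day 1 arrays, 18390 to 19994 on the day 4 arrays and 20488 to 20918 in day 1 control. Syn1 and Slc17a7, defining genes of synapses and of excitatory neurons, were undetected on all 6 arrays and are not in this sum. The part of neuronal cells in these decreases was not tested.

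Markers of other cell types moved less evenly. Of 17 astrocyte markers, 5 were called higher and 3 lower, or 6 and 2 without scaling. The gap junction gene Gja1 and the water channel gene Aqp4 rose by 1.28 and 1.26, Slc1a2, a glutamate transporter, rose by 1.02, Aldoc, the brain aldolase, had a difference of -0.94, Fgfr3 of -0.92, and Gfap, the astrocyte filament, had one of 0.06 (adjusted p = 0.589). The summed level of the 17 tested astrocyte markers was 64548 to 66426 at day 1 and 52064 to 67568 at day 4. Of 13 microglia and macrophage markers, 1, the macrophage antigen gene Adgre1, was called lower (-0.42) and none higher, with the list median at 10.32, 10.34 and 10.77 on the day 1 arrays and 9.93, 10.90 and 9.99 on the day 4 arrays. The call of Adgre1 was lost in 18 of 24 alternatives, with an adjusted p of 0.00486 to 0.875 over all of them. Without day 4 replicate 2, the high array of its group, 10 of the 13 were called lower with a median of -0.57. Their summed level was 20359 to 25640 at day 1 and 14077 to 29772 at day 4, with Cx3cr1, Fcgr2b, Ptprc and Tmem119 undetected on all 6 arrays. Of 10 fibroblast, pericyte and endothelial markers, 6 were called higher and none lower. Col1a2, a chain of type I collagen, measured 9.37, 9.36 and 9.90 at day 1 and 10.52, 11.44 and 10.88 at day 4. The rise was 1.40 ± 0.26 (SE, adjusted p = 0.000872), and Col3a1, Postn and Lum, also products of fibroblasts, rose by 1.28, 1.39 and 0.92. Col3a1 and Lum were each detected on 1 of the 3 day 1 arrays, so they passed the filter only through the day 4 group, where they were higher. Their part in the count and in the summed level therefore depends on that filter. The call of Lum was lost without day 4 replicate 2 (0.67, adjusted p = 0.0503). The summed level of the 10 tested markers of this list went from 2419 to 2774 at day 1 to 3740 to 4628 at day 4. The endothelial and pericyte genes Cdh5, Flt1, Tek and Rgs5 were undetected on all 6 arrays and are not in the sum. The part of such cells in the rise of collagen genes was not tested.

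Genes used by every cell also shifted slightly under the main scaling. Of 53 cytosolic ribosomal protein genes, 22 were called lower and none higher with a median of -0.17, which turned to 0.05 with 2 lower when no scaling was applied. Of 30 chromatin modifiers, 17 were called lower and 3, the deacetylase genes Hdac11, Hdac4 and Sirt2, higher. Without scaling 2 were lower and Hdac4 was not called higher. Actb, the cytoskeletal actin often used as a reference, had a difference of -0.01 (adjusted p = 0.949).

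The span from day 1 to day 4 under PD169316 was also set beside the first day of differentiation without inhibitor, day 1 control against day 0, which shares no array with it. That earlier step called 3840 of 9959 probes (38.6%), 19.9% of those tested higher and 18.7% lower. Over 6942 genes tested in both comparisons the log2 differences had a Pearson correlation of 0.28, a description across genes, which are not independent replicates. All arrays shared 1 normalization and 1 fit. The comparisons had 1618 called genes in common, which was 43% of the 3759 called from day 1 to day 4 and 61.9% of the 2614 called in the first day. The 43% stands beside the 38.6% of all probes called in the first day. The 61.9% stands beside the 53.9% of all 7225 named genes called from day 1 to day 4. Whether the overlap exceeds these shares was not tested. Of the 1618 genes, 574 were higher in both and 469 lower in both. Another 192 were higher in the later span and lower in the first day, and 383 had the reverse order. Mal rose by 2.80 in the first day without inhibitor, Mog by 0.80 and Mobp by 3.16, beside the 4.17, 3.32 and 3.20 given above for the later span. Gad1 had a difference of -0.94 in the first day. Cdk1 had one of -0.43 (adjusted p = 0.11) and Mcm7 one of 0.14 (adjusted p = 0.299).

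**Figure D4:**
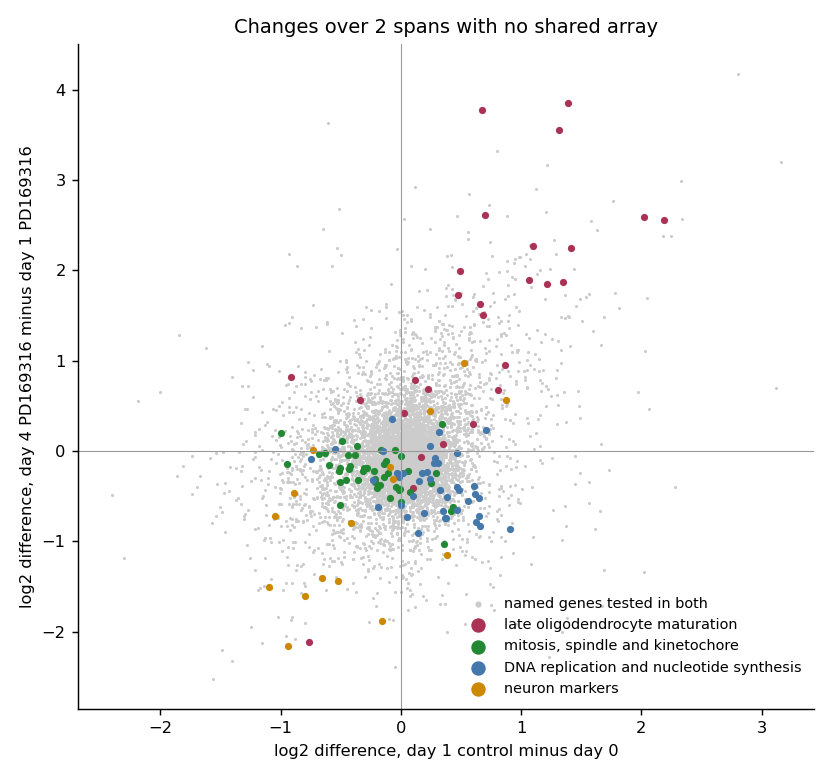
Log2 difference of day 4 against day 1 PD169316 (vertical axis) and of day 1 control against day 0 (horizontal axis) for genes tested in both, 1 point per gene, with members of 4 lists coloured. Points of the late maturation list lie mostly in the upper part, and those of the neuron list mostly below the zero line.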

How the data were processed

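RNA was hybridised to Illumina RatRef-12 arrays of 22523 probes. The authors deposited, per array, a probe intensity and a detection p-value, and any background correction or scaling of the intensity is not given in the sources used here. The value table held the same intensity in all 405414 cells. Intensities of all 18 arrays were corrected and quantile-normalized with neqc in limma 3.58.1 (R 4.3.3), which infers negative controls from the detection p-values (offset 16), and put on the log2 scale. A probe was tested if its detection p was below 0.01 on each array of either group compared, in a fit of 12 arrays with eBayes and Benjamini-Hochberg adjustment (two-sided). The day 2 arrays entered only the normalization, apart from an alternative fit of all 18 arrays. The sources used here name the authors' test, an empirical Bayes test with a fold and a p threshold. Symbols came from the platform annotation (13793 probes with 1 symbol), and a gene is its probe with the highest mean. Of 136 genes with several probes, 82 had the same call for all and 6 had opposite calls. The text names the 15 largest changes each way, up to 4 genes of each list, 64 key genes (54 with a probe, of which Hes5, Ccnd2 and Ccl20 were undetected in both groups), and all members of some short counts, the latter chosen after their values were seen. Members and the 46 gene lists were chosen with earlier results of these data known, and 287 of 1518 listed genes had no probe. Promoters came from RefSeq. The fit was tested on simulated data. The number of arrays limits the precision. Figures were drawn with matplotlib 3.10.9.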

Additional observations from a re-analysis of the deposited data

How the results depend on the processing

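For day 4 against day 1 PD169316, no probe was called in opposite directions by any alternative. With deposited log2 values and no scaling, 2541 probes were called, 492 of them lower, and 46.8% of the original calls were kept. With a 2-fold minimum, 841 were called, 546 higher and 295 lower. Leaving out 1 array at a time gave 4622 to 5401 calls, 2118 to 2417 higher and 2504 to 2984 lower. For day 1 control against day 0, deposited values gave 194 higher and 2888 lower, and left-out arrays 3009 to 4174 calls. For day 4 PD169316 against day 1 control, deposited values gave 2361 calls, 456 lower, and left-out arrays 4527 to 5242. Of 265 genes named or eligible to be named, 238 were called, and 178 of these calls held in each alternative that tested the gene, 23 or 24 of them, of scaling, filter, arrays in the fit, block, weights or left-out array. The small differences of Sox10, Psph and Vcan turned to 0.1067, 0.024 and 0.007005 with deposited values. The replicate number as a block gave 5258 calls for day 4 against day 1 PD169316. Same-numbered arrays deviated with correlations of 0.066, -0.162 and -0.127, and arrays with unlike numbers with -0.158 to 0.193. With 3 arrays per group, these values cannot decide whether a replicate number marks a shared culture. A BeadChip block was not run, since the headers name no chips. With 3 arrays per group and no day 4 control, counts near the threshold move, and the offset compresses the differences of dim probes.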

Other observations

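Outside the named genes, the largest rise of a probe without a symbol in the annotation used here was 4.15 on the log2 scale and the largest fall was -2.24, and these probes are not described further. Among genes of the matrix, Adamts1, a metalloproteinase, rose by 1.28 ± 0.17 (SE, adjusted p = 7.04e-05) with no overlap between the groups. Gabrg1, a GABA receptor subunit, rose by 1.61 (adjusted p = 1.01e-05) although the subunit genes Gabra5 and Grin1 were called lower. Panx1, a channel-forming pannexin, rose by 1.09, and Gjb2, a connexin, had a difference of -0.35 and stood -1.30 from day 1 control. Npy, a neuropeptide, had a difference of -0.70 between the inhibitor groups and was 1.05 above day 1 control.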
